A study of Mus musculus with 14 samples.

Results

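The genes described here are 34 mouse genes of the JmjC histone demethylase and AlkB dioxygenase families, taken as listed by symbol and matched to the Ensembl identifiers of the files. All 34 had an identifier, out of 37991 genes in the files of the 5 culture media and 37620 in a set of 4 single libraries. By role they comprise 2 demethylases of H3K36 with a CXXC domain, 4 members of the KDM3 family, 4 of the KDM4 family, 3 of the KDM5 family, 2 of the KDM6 family and 3 of the KDM7 family, with 7 other JmjC proteins or hydroxylases and 9 members of the AlkB family. These enzymes use iron, oxygen and 2-oxoglutarate to oxidise a methyl group or an amino acid side chain, and vitamin C can keep the iron in its reduced, active form. The histone demethylases remove methyl groups from lysines that mark active or silent chromatin, while AlkB enzymes remove them from DNA, RNA or proteins. In mouse embryonic stem cells several of them are known to act on genes that hold or release the pluripotent state.

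The study followed mouse embryonic stem cells (ESCs) across states of pluripotency, naive to primed, by total RNA sequencing. All cells were C57BL/6 ESCs that carry a pair of reporters, mCherry for the mir-290 locus and eGFP for the mir-302 locus, so this background is shared by every group. In the first experiment cells plated at low density spent 5 days in 1 of 5 media, with 2 libraries each: L-Pro/LIF (serum, the cytokine LIF and L-proline at a dose not stated), VitC/LIF (serum, LIF and vitamin C at 500 µM), 2i/LIF (the label names the inhibitor mix 2i and LIF), F/A (serum-free N2B27 to which 20 ng/ml of activin A and 12 ng/ml of bFGF were added) and FBS/LIF (serum and LIF alone). In the second, each library stood alone and came from cells whose description gives them both mCherry and eGFP: L-proline at 1 mM for 5 days, F/A for 3 and for 5 days (20 ng/ml of activin A, bFGF dose not stated), and a day 0 library titled untreated, whose protocol added 100 µM of vitamin C to serum and LIF. No label says whether the 2 libraries of a medium are separate cultures, so p-values measure the spread between these libraries, which may be technical.

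Mapped fragments ranged from 17778399 to 26354444 per library of the media, except for 6937945 in F/A replicate 1, and the single libraries held 33162689 to 39711061 counts. F/A replicate 1 stood apart from its partner. Among genes with a mean of at least 5 CPM (counts scaled to a common library size), 22.0% differed by more than 1.5-fold between the F/A libraries, against 4.86% to 7.23% in the other media, and among the members 7 of 32 did so. Transcripts of pluripotent cells, Pou5f1 and Sox2 among them, were present in every library, and the 12 markers summed to 1630 and 1990 CPM in F/A, 2160 and 2040 in L-Pro/LIF, 3240 and 3290 in VitC/LIF, 4190 and 4120 in 2i/LIF and 3200 and 3130 in FBS/LIF. The 14 fibroblast and feeder markers summed to 38.0 and 43.6 CPM in L-Pro/LIF, 35.9 and 38.5 in VitC/LIF, 7.21 and 7.01 in 2i/LIF, 36 and 31.1 in F/A and 13.7 and 14.6 in FBS/LIF. All 14 had counts in L-Pro/LIF and F/A, while Lum, Postn and Prrx1 were at 0 in both FBS/LIF libraries. Primitive endoderm markers (12 listed) reached 398 and 319 CPM in F/A and 129 to 249 CPM in the other media, and trophectoderm markers (11 listed, Prl3d1 at 0 in every library of the media) lay at 246 and 264 CPM in L-Pro/LIF against 124 and 132 CPM in FBS/LIF. A list total does not identify a cell type. Of the trophectoderm list, Eomes was at 54.9 and 58.3 CPM in F/A against 2.68 and 3.23 in FBS/LIF. Tfap2c of the same list was at 6.85 and 5.3 CPM against 58.7 and 70.5. T, 1 of the pluripotent markers, was at 308 and 345 CPM in F/A against 0.647 and 0.797 in FBS/LIF. The part of other cell types in the results below was not tested. In bulk RNA fewer cells with a transcript and less RNA per cell cannot be told apart.

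The windows around transcription start sites of 6 members are shown. Kdm3a, Kdm4c, Alkbh2, Jmjd4 and Phf2 each kept at least 1 call between media whichever library was left out, and Jmjd1c is the relative set beside Kdm3a below. Other members kept a call too and are not shown, among them Alkbh1, whose window holds 0 matches. They are RefSeq sequences of the GRCm38.p6 assembly, 250 bases before to 50 bases after the start, and 27 of the 34 members had at least 1 window, 36 in all. Capitals mark ACGTG or GCGTG, the core recognised by hypoxia-inducible factors, on either strand (read as CACGT or CACGC on the other).
Kdm3a, chr6:71632868-71633167, minus strand: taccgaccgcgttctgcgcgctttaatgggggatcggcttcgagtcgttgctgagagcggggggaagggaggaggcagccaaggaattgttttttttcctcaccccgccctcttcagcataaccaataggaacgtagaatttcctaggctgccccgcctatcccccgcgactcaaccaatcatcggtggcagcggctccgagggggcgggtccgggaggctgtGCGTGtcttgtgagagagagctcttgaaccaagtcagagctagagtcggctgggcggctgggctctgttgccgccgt
Alkbh2, chr5:114128169-114128468, minus strand: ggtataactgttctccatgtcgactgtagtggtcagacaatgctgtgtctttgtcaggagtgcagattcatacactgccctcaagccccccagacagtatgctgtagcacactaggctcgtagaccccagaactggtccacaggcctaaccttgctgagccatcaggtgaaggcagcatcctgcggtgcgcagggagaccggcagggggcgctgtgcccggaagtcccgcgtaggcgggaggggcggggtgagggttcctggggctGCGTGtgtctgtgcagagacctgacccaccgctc
Kdm4c, chr4:74251629-74251928, plus strand: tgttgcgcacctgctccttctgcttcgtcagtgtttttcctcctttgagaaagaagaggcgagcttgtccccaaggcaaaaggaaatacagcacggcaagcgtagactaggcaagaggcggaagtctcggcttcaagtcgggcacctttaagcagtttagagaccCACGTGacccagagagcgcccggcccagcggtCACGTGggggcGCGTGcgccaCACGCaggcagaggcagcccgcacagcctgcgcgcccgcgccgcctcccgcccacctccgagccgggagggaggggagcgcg
Jmjd1c, chr10:67126838-67127137, plus strand: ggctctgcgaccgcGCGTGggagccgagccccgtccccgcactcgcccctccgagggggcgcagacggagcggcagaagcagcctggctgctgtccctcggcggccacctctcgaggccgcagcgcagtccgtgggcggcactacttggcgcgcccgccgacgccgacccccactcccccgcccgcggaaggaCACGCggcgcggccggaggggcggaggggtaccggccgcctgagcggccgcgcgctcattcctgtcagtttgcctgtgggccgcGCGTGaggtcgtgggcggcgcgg
Jmjd4, chr11:59449795-59450094, plus strand: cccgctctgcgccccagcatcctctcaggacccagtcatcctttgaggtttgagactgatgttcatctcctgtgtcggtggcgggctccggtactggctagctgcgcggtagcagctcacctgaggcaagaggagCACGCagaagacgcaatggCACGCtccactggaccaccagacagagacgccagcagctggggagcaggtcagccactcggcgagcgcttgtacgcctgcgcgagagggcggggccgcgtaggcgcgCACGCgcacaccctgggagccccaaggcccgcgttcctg
Phf2, chr13:48870836-48871135, minus strand: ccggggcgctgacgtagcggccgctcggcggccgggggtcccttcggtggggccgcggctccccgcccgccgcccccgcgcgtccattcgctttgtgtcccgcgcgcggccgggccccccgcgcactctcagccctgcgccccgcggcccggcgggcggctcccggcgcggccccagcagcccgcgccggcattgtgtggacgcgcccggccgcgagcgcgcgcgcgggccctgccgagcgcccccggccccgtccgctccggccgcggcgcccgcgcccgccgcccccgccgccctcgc
The Kdm3a window, 1 of 3 annotated for the gene, holds 1 match, and the other 2 hold 0. The Kdm4c window holds 4 matches to ACGTG and 2 to GCGTG, counted on both strands where they overlap, and the first of its 2 windows holds 0. The Jmjd1c window holds 3 matches and its other window 0, and the single windows of Alkbh2, Jmjd4 and Phf2 hold 1, 3 and 0. Of the member windows used, 21 of 36 (58.3%) held either core, against 43.8% of 32851 windows of the whole table. There GCGTG was found in 32.4% and ACGTG in 19.6%. Member windows also held more CpG dinucleotides, with a median of 20 against 7, and Phf2 had 63. Both cores contain a CpG, so the counts are not independent of base composition. The extended nuclear receptor element AAGGTCA, searched on both strands, occurred in 2 member windows (5.56%, those of Kdm6a and Tyw5) against 4.72% of all windows. A match says only that these letters are present.

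Of the 34 members, 33 had enough reads to be tested in the 5 media. The exception was Kdm4d, a KDM4 gene known from testis, whose highest value was 0.463 CPM. Per length, in fragments per kilobase of transcript scaled to the library (FPKM), the member with the highest mean differed between the media. It was Jmjd1c in L-Pro/LIF (53.3) and F/A (116), Kdm2b in 2i/LIF (86.2) and Kdm5b in VitC/LIF (61.0) and FBS/LIF (67.6 FPKM). Several of these means lay close to the next member, as with Kdm5b at 49.4 FPKM in L-Pro/LIF. The lowest tested members over the 10 libraries were Hr at 0.853, Phf2 at 1.32 and Kdm6b at 1.94 FPKM. Alkbh1 drew only 29.9% of its estimated reads from fragments that hit no other gene, Tyw5 84.2% and Asph 89.9%, while the other tested members were above 90%. Values of Alkbh1 are therefore uncertain.

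**Figure D1:**
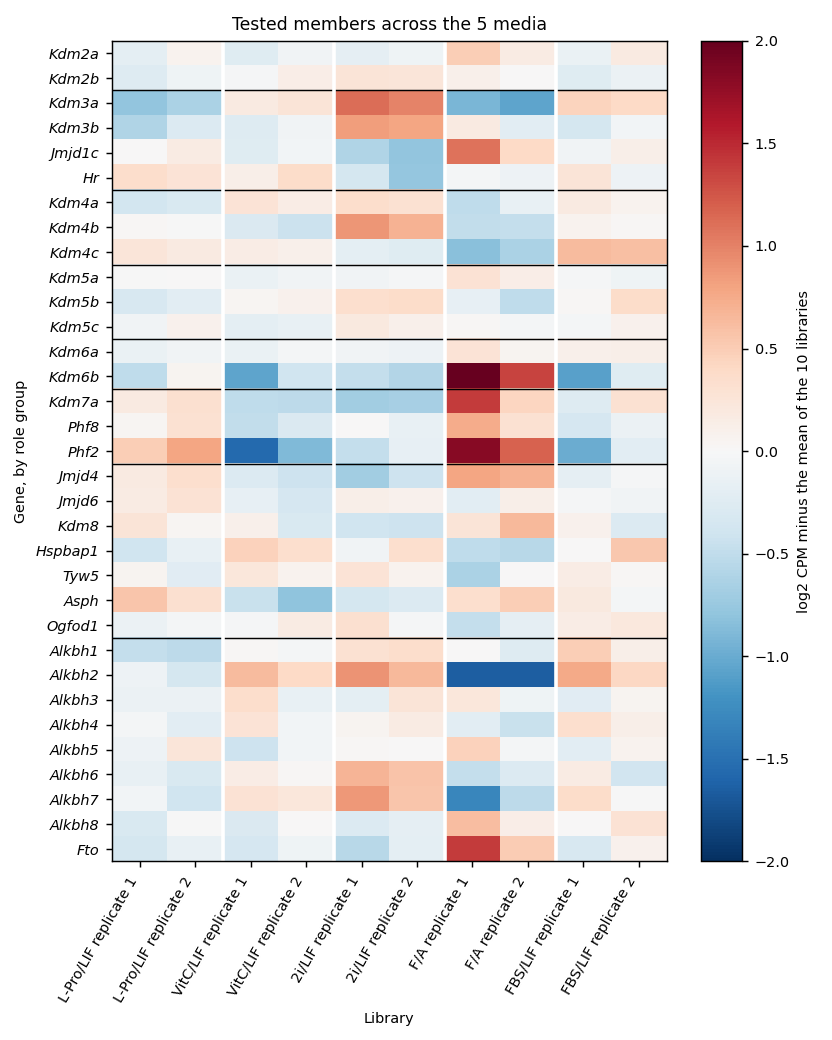
Log2 CPM of the 33 tested members (rows, grouped by role with black lines) in each of the 10 libraries (columns), minus the gene's mean over the libraries, with a colour scale that ends at 2 in either direction, so that Kdm6b in F/A replicate 1 takes the end colour. Kdm3a is blue in L-Pro/LIF and F/A and red in 2i/LIF, Alkbh2 is blue in F/A, and Kdm6b and Phf2 are red in F/A, more so in replicate 1.

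A member is said to have risen or fallen where the adjusted p of edgeR's quasi-likelihood test was under 0.05 (called). L-proline in serum and LIF was set against FBS/LIF first: 6 of 33 members (18.2%) were called, 1 higher and 5 lower, against a background of 24.0% of all genes tested (13.7% higher and 10.3% lower), so the members did not stand out by number. With VitC/LIF over FBS/LIF the count was 0, against 0.674% of all genes (0.362% higher and 0.312% lower). There 3 members had an unadjusted p under 0.05, and other settings called 1 or 2 (see the values of Kdm4c and Asph below). The count of 0 does not show that no member changed. In 2i/LIF over FBS/LIF 8 members (24.2%) were called, 5 higher and 3 lower, against 30.4% of all genes (12.5% higher and 17.9% lower). F/A over FBS/LIF had 18 members (54.5%), 7 higher and 11 lower, against 46.4% of all genes (24.4% higher and 22.0% lower). L-Pro/LIF over VitC/LIF, the contrast of the pair of supplements, had 11 (33.3%), 6 higher and 5 lower, against 29.8% (16.8% higher and 13.0% lower). F/A over L-Pro/LIF had 7 (21.2%), 4 higher and 3 lower, against 22.0% (11.1% higher and 10.9% lower). Median log2 fold changes over the tested members lay between -0.15 (VitC/LIF over FBS/LIF) and 0.15 (F/A over L-Pro/LIF), beside -0.04 to 0.05 over all genes in the same 6 comparisons. The members' share was above the background in F/A over FBS/LIF and in L-Pro/LIF over VitC/LIF and below it in the other 4 comparisons, and these differences were not tested.

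In all, 23 members were called in at least 1 comparison, in 50 pairs of member and comparison. The same count over all genes was not made, so it does not set the members apart. In none of the 50 did the libraries of the groups compared overlap, which adds no support, since the pairs were picked as called. Each call was repeated with 1 library left out. The share of all genes called in these fits is not given, so a changed count may follow the background and does not set the members apart. Of the 50, 17 were kept in all 4 such fits and 12 in none. For L-Pro/LIF over FBS/LIF 2 calls were left without either L-Pro/LIF library, 3 when FBS/LIF replicate 1 was dropped and 4 when its partner was. For 2i/LIF it was 4 without FBS/LIF replicate 2 or 2i/LIF replicate 1 and 5 without FBS/LIF replicate 1 or 2i/LIF replicate 2. F/A over FBS/LIF fell to 9 calls without FBS/LIF replicate 1. L-Pro/LIF over VitC/LIF had 4 calls when L-Pro/LIF replicate 1 was dropped and 3 for any other library. F/A over L-Pro/LIF had 2 without either L-Pro/LIF library or F/A replicate 1, and 11 without F/A replicate 2.

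Values per length answer a different question from counts where the effective length of a gene differs between libraries. They were also not TMM-scaled, so they differ from counts in scaling too. Jmjd4 had near equal effective lengths in F/A (4130 and 4163 bases) and FBS/LIF (4129 and 4169 bases). Its means in F/A and FBS/LIF were 52.9 and 29.6 CPM, and 14.2 and 6.87 FPKM. How far length or scaling made the changes below was not tested. With limma on log2(FPKM + 1), 36 of the 50 calls were kept and 10 pairs of member and comparison were called that counts did not call. The estimate moved by more than 1.5 times for 1, 0, 1, 2, 2 and 1 of the 33 members in the 6 comparisons as ordered above, against 11.0% to 22.6% of all genes. These were Kdm2b, Phf2 and Kdm6b. The values of Phf2 and Kdm6b are low in FPKM, where the pseudocount of 1 shrinks a change. Phf2 was at 1.33 for F/A over FBS/LIF, 0.83 for L-Pro/LIF over VitC/LIF and 0.62 for L-Pro/LIF over FBS/LIF, the last no longer called (adjusted p = 0.062). Kdm6b was at 2.02 for F/A over FBS/LIF and 1.77 over L-Pro/LIF, both called. The other calls lost per length were those of Jmjd1c, Jmjd4 and Alkbh6 in 2i/LIF over FBS/LIF (adjusted p 0.25, 0.060 and 0.062), of Kdm4a, Kdm5b, Ogfod1, Alkbh1 and Alkbh4 in F/A over FBS/LIF (0.30, 0.20, 0.38, 0.18 and 0.14), and of Kdm4b, Phf8, Hspbap1, Alkbh1 and Alkbh2 in L-Pro/LIF over VitC/LIF (0.078, 0.28, 0.058, 0.096 and 0.052). Gained per length were, besides Kdm2a and Kdm2b, Asph in 2i/LIF and in F/A over FBS/LIF (-0.58 and 0.42), Kdm5a in F/A over FBS/LIF (0.40), and Kdm6a, Phf2 and Alkbh8 in F/A over L-Pro/LIF (0.47, 0.71 and 0.72).

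**Figure D2:**
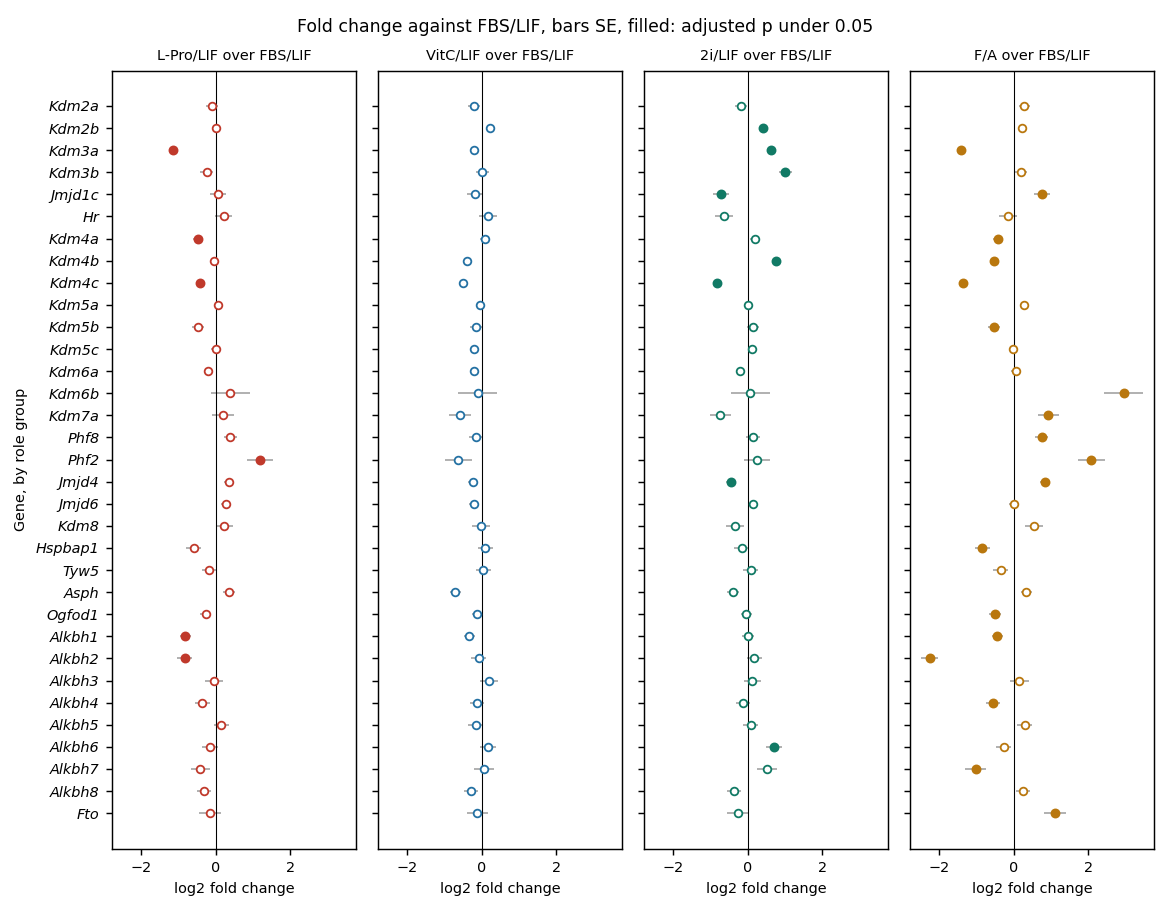
Log2 fold change against FBS/LIF of the 33 tested members in the 4 other media, one panel per medium, with bars of 1 SE and filled points where the adjusted p was under 0.05. Filled points number 6 in L-Pro/LIF, 0 in VitC/LIF, 8 in 2i/LIF and 18 in F/A, where Kdm6b lies at 2.94 and Alkbh2 at -2.25.

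Kdm3a, the H3K9 demethylase that hypoxia induces and that mouse ESCs need to keep self-renewal genes active, was called in 4 of the 6 comparisons. It stood at 84.2 and 93.2 CPM in L-Pro/LIF, 165 and 174 in VitC/LIF, 314 and 290 in 2i/LIF, 76.7 and 69.9 in F/A and 198 and 191 in FBS/LIF. The ranges of 2i/LIF, FBS/LIF, VitC/LIF, L-Pro/LIF and F/A did not overlap, in that falling order. Kdm3a fell in L-Pro/LIF over FBS/LIF (log2 fold change -1.13, SE 0.11, adjusted p = 0.00022), in F/A over FBS/LIF (-1.41, SE 0.11, adjusted p = 3.4e-05) and in L-Pro/LIF over VitC/LIF (-0.94, SE 0.11, adjusted p = 0.00039), and it rose in 2i/LIF (0.63, SE 0.11, adjusted p = 0.0029). All 4 calls were kept whichever library was left out. VitC/LIF over FBS/LIF gave -0.20 (SE 0.11, adjusted p = 0.61) and was not called.

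Kdm3b, its close relative, was at 60.1 and 75.8 CPM in L-Pro/LIF, 76.1 and 86.6 in VitC/LIF, 164 and 158 in 2i/LIF, 104 and 79.3 in F/A and 71.6 and 88.4 in FBS/LIF. Only 2i/LIF stood clear of the other media, and there Kdm3b rose by 1.01 (SE 0.17, adjusted p = 0.0028) in every fit with a library left out. Jmjd1c, the largest protein of the family, was at 275 and 305 CPM in L-Pro/LIF, 231 and 263 in VitC/LIF, 179 and 157 in 2i/LIF, 578 and 359 in F/A and 260 and 295 in FBS/LIF. It ran opposite to Kdm3a at both ends, lowest in 2i/LIF (log2 fold change over FBS/LIF -0.72, SE 0.21, adjusted p = 0.032) and highest in F/A (0.76, SE 0.21, adjusted p = 0.019 over FBS/LIF and 0.69, SE 0.21, adjusted p = 0.049 over L-Pro/LIF, the last at 0.062 with the replicate number as a block). These calls were fragile: that of 2i/LIF was lost without any 1 of its 4 libraries (adjusted p 0.066 to 0.17), that over FBS/LIF without either FBS/LIF library or F/A replicate 1 (0.052 to 0.12), and that over L-Pro/LIF without either L-Pro/LIF library or F/A replicate 1 (0.12 to 0.24). Without F/A replicate 1 the log2 fold change of Jmjd1c over FBS/LIF was 0.37 (adjusted p = 0.088). Hr, a corepressor of nuclear receptors with a JmjC domain, stayed between 2.58 and 5.67 CPM and was never called.

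The makeup of the family differed between the media. Of the FPKM summed over Kdm3a, Kdm3b and Jmjd1c, Kdm3a held 23.5% in both L-Pro/LIF libraries, 47.3% and 43.7% in VitC/LIF, 57.1% and 55.1% in 2i/LIF, 9.85% and 15.5% in F/A and 47.1% and 43.9% in FBS/LIF. Jmjd1c held 64.2% and 62.5% in L-Pro/LIF, 38.7% and 42.6% in VitC/LIF, 24.7% and 24.9% in 2i/LIF, 80.2% and 72.0% in F/A and 42.0% and 43.4% in FBS/LIF. Jmjd1c thus held the larger share by far in both libraries of L-Pro/LIF and F/A, Kdm3a in those of 2i/LIF, and in FBS/LIF and VitC/LIF their shares were closer. The shares are a description with 2 libraries per medium and were not tested. They rest on the effective lengths in the files, which for Jmjd1c were 4220 and 5114 bases in F/A and 5281 and 5728 in FBS/LIF.

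**Figure D3:**
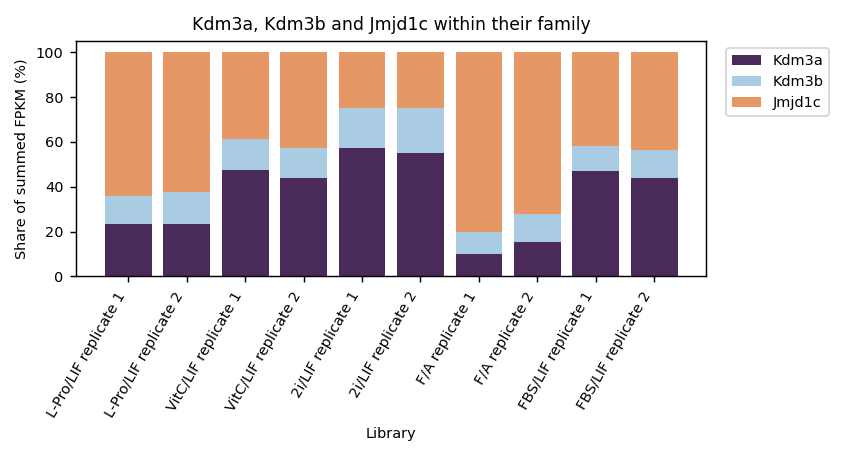
Share of the summed FPKM of Kdm3a, Kdm3b and Jmjd1c in each library, in percent, stacked to 100%. The Kdm3a share is 55.1% or more in 2i/LIF, 23.5% in L-Pro/LIF and 15.5% or less in F/A.

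KDM4 enzymes remove trimethyl marks from H3K9 and H3K36, and Kdm4c is known to be driven by Oct4 in mouse ESCs. Kdm4c was at 142 and 136 CPM in L-Pro/LIF, 133 and 129 in VitC/LIF, 105 and 102 in 2i/LIF, 67.1 and 77.2 in F/A and 186 and 182 in FBS/LIF. FBS/LIF held the highest level, above every other library, and replicates lay close together. Against FBS/LIF, Kdm4c fell in F/A (log2 fold change -1.35, SE 0.10, adjusted p = 2.9e-05), in 2i/LIF (-0.83, SE 0.10, adjusted p = 0.00046) and in L-Pro/LIF (-0.41, SE 0.10, adjusted p = 0.021), and it also fell in F/A over L-Pro/LIF (-0.95, SE 0.10, adjusted p = 0.00089). The L-Pro/LIF call over FBS/LIF was lost without any 1 of the 4 libraries (adjusted p 0.10 to 0.16), and the other 3 calls were kept throughout. VitC/LIF gave -0.49 (SE 0.10, adjusted p = 0.084), a fall no smaller than that in L-Pro/LIF, with the same SE. edgeR did not call it and DESeq2 did (adjusted p = 0.0025). Adjustment over all genes is stricter where fewer genes differ. With edgeR 0.674% of all genes were called in VitC/LIF over FBS/LIF, against 24.0% in L-Pro/LIF.

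Kdm4a, which also acts in DNA repair, was at 84.9 and 88.3 CPM in L-Pro/LIF, 132 and 121 in VitC/LIF, 139 and 135 in 2i/LIF, 77.1 and 99.2 in F/A and 124 and 115 in FBS/LIF. It was lower in L-Pro/LIF and F/A than in the other 3 media, without overlap. The log2 fold changes were -0.46 for L-Pro/LIF over FBS/LIF (SE 0.13, adjusted p = 0.033), -0.43 for F/A over FBS/LIF (SE 0.13, adjusted p = 0.025) and -0.54 for L-Pro/LIF over VitC/LIF (SE 0.13, adjusted p = 0.014). None was firm: both L-Pro/LIF calls were lost without any 1 of their 4 libraries (adjusted p 0.10 to 0.20 over FBS/LIF and 0.059 to 0.12 over VitC/LIF), and the F/A call without either FBS/LIF library or F/A replicate 1 (0.061 to 0.14).

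Kdm4b, another gene known to be induced by hypoxia, was at 37.3 and 36.4 CPM in L-Pro/LIF, 30.2 and 27.3 in VitC/LIF, 67.6 and 59.7 in 2i/LIF, 26.1 and 26.5 in F/A and 38.5 and 37.4 in FBS/LIF. 2i/LIF was far above the rest and F/A the lowest. Kdm4b rose in 2i/LIF (log2 fold change 0.75, SE 0.11, adjusted p = 0.0012) and fell in F/A (-0.53, SE 0.11, adjusted p = 0.0059), both over FBS/LIF and in every fit with a library left out. It also fell in F/A over L-Pro/LIF (-0.49, SE 0.11, adjusted p = 0.02), a call lost without F/A replicate 1 or either L-Pro/LIF library (adjusted p 0.053 to 0.11). The rise in L-Pro/LIF over VitC/LIF (0.36, SE 0.11, adjusted p = 0.041) was lost without any 1 of the 4 libraries (0.099 to 0.25) and with DESeq2 (0.058). Within the KDM4 family Kdm4c held 53.8% and 52.3% of the summed FPKM in L-Pro/LIF, 45.1% and 47.4% in VitC/LIF, 33.5% and 34.6% in 2i/LIF, 41.3% and 39.5% in F/A and 53.6% and 55.4% in FBS/LIF.

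The KDM2 and KDM5 enzymes act on H3K36 and H3K4. Kdm2b, which binds unmethylated CpG islands and recruits the Polycomb complex PRC1.1, was at 105 and 118 CPM in L-Pro/LIF, 124 and 137 in VitC/LIF, 150 and 148 in 2i/LIF, 134 and 126 in F/A and 106 and 116 in FBS/LIF. Its rise in 2i/LIF over FBS/LIF (log2 fold change 0.42, SE 0.11, adjusted p = 0.019) was the only call of the KDM2 genes on counts and was lost without any 1 of the 4 libraries (adjusted p 0.058 to 0.13). Per length the picture was different. Kdm2b was at 24.7 and 26.4 FPKM in L-Pro/LIF, 53.7 and 54.9 in VitC/LIF, 90.8 and 81.5 in 2i/LIF, 35.6 and 29.8 in F/A and 35.9 and 36.1 in FBS/LIF. The effective length that the authors' files give for the gene was 4301 and 4302 bases in L-Pro/LIF, 2207 and 2418 in VitC/LIF, 1549 and 1716 in 2i/LIF, 4278 and 4593 in F/A and 2824 and 3143 in FBS/LIF. With limma on log2(FPKM + 1) Kdm2b was higher in 2i/LIF over FBS/LIF by 1.24 (SE 0.11, adjusted p = 0.0002), and lower in L-Pro/LIF over VitC/LIF by a log2 difference of -1.06 (SE 0.11, adjusted p = 0.00038) and over FBS/LIF by -0.48 (SE 0.11, adjusted p = 0.02). The count-based values of the last pair of contrasts were -0.22 and 0.01, neither of them called.

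Kdm2a ranged from 74.7 to 125 CPM and was not called on counts. Per length it was higher in F/A over FBS/LIF by 0.80 (SE 0.18, adjusted p = 0.0089) and over L-Pro/LIF by 0.68 (SE 0.18, adjusted p = 0.033), on the log2(FPKM + 1) scale. Kdm5b, an H3K4 demethylase, was at 270 and 290 CPM in L-Pro/LIF, 344 and 355 in VitC/LIF, 422 and 432 in 2i/LIF, 300 and 236 in F/A and 343 and 431 in FBS/LIF. It fell in F/A over FBS/LIF (-0.53, SE 0.16, adjusted p = 0.023), a call lost without FBS/LIF replicate 2 (adjusted p = 0.13). Its relatives Kdm5a (138 to 185 CPM) and the X-linked Kdm5c (133 to 175 CPM) were not called on counts.

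Kdm6a and Kdm6b remove the Polycomb mark H3K27me3. Kdm6a, on the X chromosome, was at 70.5 and 74.3 CPM in L-Pro/LIF, 70.7 and 75.7 in VitC/LIF, 74.0 and 72.3 in 2i/LIF, 93.8 and 80.7 in F/A and 83.5 and 84.6 in FBS/LIF, with no call on counts. Kdm6b, known as an inducible gene, was at 4.63 and 6.80 CPM in L-Pro/LIF, 3.15 and 4.97 in VitC/LIF, 4.72 and 4.37 in 2i/LIF, 50.6 and 16.8 in F/A and 3.10 and 5.58 in FBS/LIF. Both F/A libraries were above all others, but they differed 3.02-fold from each other, the widest replicate gap of any member. Kdm6b rose in F/A over FBS/LIF by 2.94 (SE 0.53, adjusted p = 0.0027) and over L-Pro/LIF by 2.54 (SE 0.52, adjusted p = 0.013). Without F/A replicate 1 the rise over FBS/LIF was 1.94 (adjusted p = 0.0084), and the call over L-Pro/LIF was lost without that library or either L-Pro/LIF library (adjusted p 0.052 to 0.10).

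The KDM7 enzymes, whose PHD finger reads H3K4me3 while the JmjC domain removes methyl groups from H3K9 or H3K27, all rose in F/A over FBS/LIF. Phf2 was at 7.02 and 8.65 CPM in L-Pro/LIF, 1.71 and 2.72 in VitC/LIF, 3.60 and 4.48 in 2i/LIF, 17.6 and 11.3 in F/A and 2.50 and 4.31 in FBS/LIF. Both L-Pro/LIF and F/A were above the other 3 media, and F/A was the higher. Phf2 rose by 2.08 in F/A over FBS/LIF (SE 0.36, adjusted p = 0.0022, kept in every fit), by 1.82 in L-Pro/LIF over VitC/LIF (SE 0.37, adjusted p = 0.006, lost at 0.052 without VitC/LIF replicate 1) and by 1.20 in L-Pro/LIF over FBS/LIF (SE 0.35, adjusted p = 0.038). The last call was lost without FBS/LIF replicate 1 or either L-Pro/LIF library (adjusted p 0.08 to 0.21).

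Phf8, an X-linked gene, was at 26.1 and 31.5 CPM in L-Pro/LIF, 18.1 and 20.9 in VitC/LIF, 25.7 and 23.0 in 2i/LIF, 42.5 and 31.6 in F/A and 20.2 and 23.5 in FBS/LIF. It rose in F/A over FBS/LIF (log2 fold change 0.75, SE 0.18, adjusted p = 0.0092, lost at 0.074 without FBS/LIF replicate 1) and in L-Pro/LIF over VitC/LIF (0.56, SE 0.18, adjusted p = 0.043, lost without any 1 of the 4 libraries at 0.058 to 0.23 and with the replicate block at 0.060). Kdm7a was at 26.6 and 29.3 CPM in L-Pro/LIF, 16.6 and 16.4 in VitC/LIF, 14.5 and 14.9 in 2i/LIF, 62.1 and 31.7 in F/A and 19.7 and 29.2 in FBS/LIF. Its rise in F/A over FBS/LIF (0.93, SE 0.29, adjusted p = 0.03) was lost without FBS/LIF replicate 1 (adjusted p = 0.18) or F/A replicate 1 (log2 fold change 0.37, adjusted p = 0.21). The lower of the F/A libraries was only a little above the higher FBS/LIF library.

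**Figure D4:**
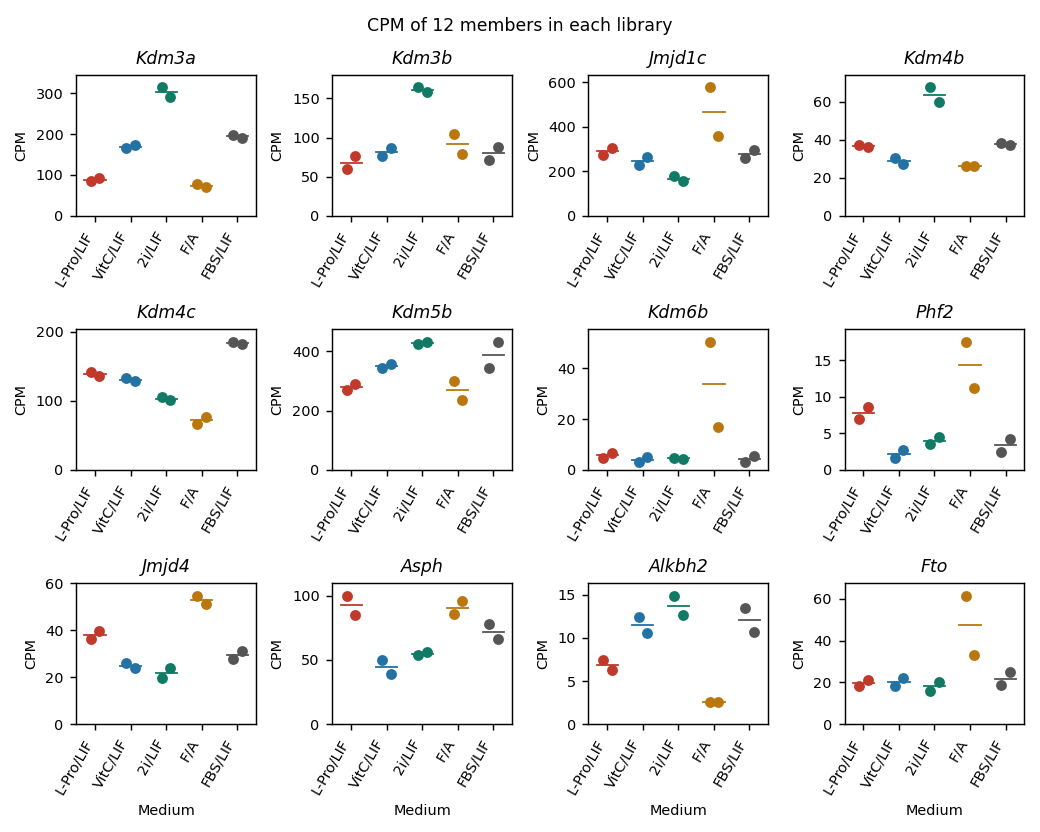
CPM of 12 members in each library of the 5 media, with points for libraries and lines for the mean of 2. Kdm3a and Kdm4b peak in 2i/LIF, Kdm4c in FBS/LIF, and Phf2, Jmjd4, Kdm6b and Fto in F/A, where the points of Kdm6b (50.6 and 16.8 CPM) and Fto (61.6 and 33 CPM) lie far apart.

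Among the other JmjC proteins, most of which hydroxylate proteins rather than demethylate histones, Jmjd4 was called in 4 of the 6 comparisons, and 1 of these calls was kept in every fit. Jmjd4, which in human cells hydroxylates a translation release factor, was at 36.1 and 39.9 CPM in L-Pro/LIF, 26.1 and 23.9 in VitC/LIF, 19.6 and 23.9 in 2i/LIF, 54.8 and 51.1 in F/A and 27.9 and 31.3 in FBS/LIF. It rose in F/A over FBS/LIF (log2 fold change 0.84, SE 0.13, adjusted p = 0.0015, kept in every fit), in L-Pro/LIF over VitC/LIF (0.60, SE 0.13, adjusted p = 0.01) and in F/A over L-Pro/LIF (0.48, SE 0.13, adjusted p = 0.037), and fell in 2i/LIF over FBS/LIF (-0.45, SE 0.14, adjusted p = 0.036). The L-Pro/LIF call was lost without VitC/LIF replicate 2 or L-Pro/LIF replicate 2 (adjusted p 0.082 and 0.076), that over L-Pro/LIF without any 1 of the 4 libraries (0.053 to 0.25), and that of 2i/LIF without either FBS/LIF library or 2i/LIF replicate 1 (0.066 to 0.25).

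Asph, which hydroxylates aspartate and asparagine in EGF-like domains such as those of Notch, was at 99.9 and 85.1 CPM in L-Pro/LIF, 49.8 and 38.9 in VitC/LIF, 53.4 and 56.0 in 2i/LIF, 85.8 and 95.5 in F/A and 77.7 and 66.1 in FBS/LIF. Every L-Pro/LIF library was above every VitC/LIF library, and FBS/LIF lay between. The rise in L-Pro/LIF over VitC/LIF was 1.06 (SE 0.15, adjusted p = 0.0012) and was kept in every fit. Neither medium was called against FBS/LIF with edgeR on the estimated counts. VitC/LIF over FBS/LIF was at -0.70 (SE 0.15, adjusted p = 0.098), which DESeq2 called (0.0067), as did edgeR on fragments that hit only this gene (0.043).

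Jmjd6, a lysyl hydroxylase of splicing factors and the highest of this group per length, was at 76.6 and 83.4 CPM in L-Pro/LIF, 60.8 and 54.2 in VitC/LIF, 74.0 and 72.6 in 2i/LIF, 59.0 and 74.0 in F/A and 67.1 and 65.1 in FBS/LIF. It rose in L-Pro/LIF over VitC/LIF (log2 fold change 0.48, SE 0.13, adjusted p = 0.023), which was lost without any 1 of the 4 libraries (adjusted p 0.074 to 0.18). Hspbap1, named for its binding to a heat shock protein, was at 42.9 and 50.8 CPM in L-Pro/LIF, 78.2 and 71.2 in VitC/LIF, 53.7 and 71.6 in 2i/LIF, 39.8 and 38.5 in F/A and 57.1 and 82.5 in FBS/LIF. It fell in F/A over FBS/LIF (-0.84, SE 0.20, adjusted p = 0.01, lost at 0.06 without FBS/LIF replicate 2) and in L-Pro/LIF over VitC/LIF (-0.67, SE 0.20, adjusted p = 0.034, lost without any 1 of the 4 libraries at 0.069 to 0.17).

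Ogfod1, a prolyl hydroxylase of a ribosomal protein, was at 37.5 and 39.9 CPM in L-Pro/LIF, 40.3 and 46.0 in VitC/LIF, 51.1 and 40.0 in 2i/LIF, 29.4 and 35.9 in F/A and 45.4 and 47.5 in FBS/LIF. Its fall in F/A over FBS/LIF (log2 fold change -0.50, SE 0.16, adjusted p = 0.028) was lost without either FBS/LIF library or F/A replicate 1 (adjusted p 0.083 to 0.12). Kdm8, an arginyl hydroxylase at 5.49 to 11.5 CPM, and Tyw5, which modifies transfer RNA, at 18.1 to 34 CPM, were not called.

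The AlkB family held the largest fall of any member. Alkbh2, which repairs alkylated bases in double-stranded DNA, was at 7.43 and 6.28 CPM in L-Pro/LIF, 12.4 and 10.6 in VitC/LIF, 14.9 and 12.6 in 2i/LIF, 2.54 and 2.55 in F/A and 13.5 and 10.7 in FBS/LIF. F/A lay lowest and L-Pro/LIF next, with the other 3 media above both, and FBS/LIF overlapped with both VitC/LIF and 2i/LIF. Alkbh2 fell in F/A over FBS/LIF (log2 fold change -2.25, SE 0.22, adjusted p = 0.0001) and over L-Pro/LIF (-1.43, SE 0.22, adjusted p = 0.0042), both kept in every fit, and in L-Pro/LIF over FBS/LIF (-0.82, SE 0.20, adjusted p = 0.018) and over VitC/LIF (-0.75, SE 0.20, adjusted p = 0.021). The call over FBS/LIF was lost without FBS/LIF replicate 1 or either L-Pro/LIF library (adjusted p 0.053 to 0.13), and that over VitC/LIF without any 1 of the 4 libraries (0.05 to 0.14).

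Alkbh1, reported to act on DNA and transfer RNA, was at 37.2 and 36 CPM in L-Pro/LIF, 52.3 and 50 in VitC/LIF, 63.8 and 65.8 in 2i/LIF, 51.7 and 43.2 in F/A and 72.8 and 55.8 in FBS/LIF. L-Pro/LIF held the lowest values. Alkbh1 fell there over FBS/LIF (log2 fold change -0.81, SE 0.15, adjusted p = 0.0049, kept in every fit) and over VitC/LIF (-0.48, SE 0.15, adjusted p = 0.038), and in F/A over FBS/LIF (-0.44, SE 0.15, adjusted p = 0.038). The call over VitC/LIF was lost without any 1 of the 4 libraries (adjusted p 0.11 to 0.16) and on fragments that hit only this gene (0.080), which are a minority of its reads, and that of F/A without FBS/LIF replicate 1 or F/A replicate 2 (0.23 and 0.07).

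Fto, a demethylase of N6-methyladenosine (m6A) in RNA, was at 18.2 and 21.0 CPM in L-Pro/LIF, 18.4 and 21.9 in VitC/LIF, 15.8 and 20.4 in 2i/LIF, 61.6 and 33 in F/A and 18.6 and 24.8 in FBS/LIF. The 4 media with LIF overlapped, and F/A was above them in both libraries. It rose in F/A over FBS/LIF (log2 fold change 1.11, SE 0.29, adjusted p = 0.014) and over L-Pro/LIF (1.26, SE 0.29, adjusted p = 0.02). Without F/A replicate 1 the value over FBS/LIF was 0.59 (adjusted p = 0.076), and that call was also lost without FBS/LIF replicate 1 (0.097). The call over L-Pro/LIF was lost without F/A replicate 1 or either L-Pro/LIF library (0.071 to 0.13). Alkbh5, the other m6A demethylase, ranged from 70.0 to 129 CPM with no call.

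Alkbh7, a mitochondrial protein, was at 12.0 and 9.48 CPM in L-Pro/LIF, 15.2 and 14.7 in VitC/LIF, 22.8 and 18.3 in 2i/LIF, 5.07 and 8.70 in F/A and 16.1 and 12.4 in FBS/LIF. It fell in F/A over FBS/LIF (log2 fold change -1.02, SE 0.27, adjusted p = 0.014), a call lost without FBS/LIF replicate 1 (0.095) or F/A replicate 1 (0.057). Alkbh6, whose substrate is not settled, was at 9.31 and 8.30 CPM in L-Pro/LIF, 11.4 and 10.5 in VitC/LIF, 16.4 and 15.3 in 2i/LIF, 7.35 and 8.55 in F/A and 11.5 and 7.87 in FBS/LIF. It rose in 2i/LIF over FBS/LIF (0.71, SE 0.21, adjusted p = 0.031), which was lost without FBS/LIF replicate 2 or either 2i/LIF library (0.095 to 0.20).

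Alkbh4, linked to demethylation of actin, was at 9.68 and 8.65 CPM in L-Pro/LIF, 12.0 and 9.54 in VitC/LIF, 10.4 and 11.2 in 2i/LIF, 8.62 and 7.35 in F/A and 12.6 and 10.8 in FBS/LIF. Its fall in F/A over FBS/LIF (log2 fold change -0.56, SE 0.19, adjusted p = 0.042) was lost without either FBS/LIF library or F/A replicate 2 (adjusted p 0.057 to 0.19). The DNA repair gene Alkbh3 (7.21 to 10.7 CPM) and Alkbh8, which modifies the wobble base of transfer RNA (23.1 to 43.6 CPM), were not called on counts.

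The 4 single libraries of double-positive cells were read apart from the media, since RNA extraction, counting and vitamin C dose differed and the tables were normalised separately. With 1 library per group there is no replicate check and no test. Ratios to day 0 are given with 95% intervals that cover counting error only. Of the 33 members with at least 50 counts in the higher library, 6 (18.2%) differed by over 2-fold after 5 days of L-proline, 2 higher and 4 lower, against 34.4% of all such genes (19.8% higher and 14.6% lower). After 3 days in F/A it was 3 (9.09%), 2 higher and 1 lower, against 29.5% (17.4% higher and 12.1% lower), and after 5 days 7 (21.2%), 4 higher and 3 lower, against 36.1% (20.6% higher and 15.5% lower). The members' share was below the background in all 3, a difference that was not tested.

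Kdm3a was at 88.0 CPM after L-proline, 141 and 124 CPM after 3 and 5 days of F/A and 258 CPM at day 0, ratios of 0.341 (interval 0.327 to 0.354), 0.545 (0.527 to 0.565) and 0.478 (0.461 to 0.496). Kdm5b was at 235 CPM after L-proline and 281 and 211 CPM after F/A, against 596 CPM at day 0, with ratios of 0.395, 0.472 and 0.354. Alkbh2 was at 5.51, 8.79 and 3.74 CPM against 16.9 CPM, with a ratio of 0.221 (0.180 to 0.269) at 5 days of F/A. All 3 genes were lower in every treated library than at day 0. Alkbh7 was past 2-fold after L-proline alone, at 5.19 CPM against 11.1 CPM (ratio 0.466, interval 0.392 to 0.554).

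Of the members past 2-fold in at least 1 library, Phf2, Jmjd4, Kdm8 and Asph were higher than at day 0 in every treated library. Phf2 was at 24.5 CPM after L-proline and 18.7 and 32.6 CPM after F/A, against 10.1 CPM at day 0, with a ratio of 3.23 (interval 2.86 to 3.66) at 5 days of F/A. Jmjd4 was at 57.4, 52.7 and 68.9 CPM against 31.0 CPM. Kdm8, uncalled in the media, was at 10.8, 8.87 and 10.9 CPM against 4.16 CPM, past 2-fold in each (ratios 2.59, 2.13 and 2.63). Asph was at 50, 70.5 and 57.5 CPM against 28.4 CPM, and its ratio of 2.02 at 5 days of F/A dropped to a log2 ratio of 0.99 with TMM scaling. Jmjd1c, at 581, 484 and 655 CPM against 334 CPM, came close to 2-fold (ratio 1.96, interval 1.92 to 2.01) at 5 days of F/A. Kdm4c, called lower in F/A over FBS/LIF in the media, differed between the days of F/A. After 3 days it was at 153 CPM, above its 113 CPM at day 0 (ratio 1.36, interval 1.31 to 1.42). After 5 days it was at 73.2 CPM (ratio 0.65, interval 0.617 to 0.684), and after L-proline at 115 CPM.

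**Figure D5:**
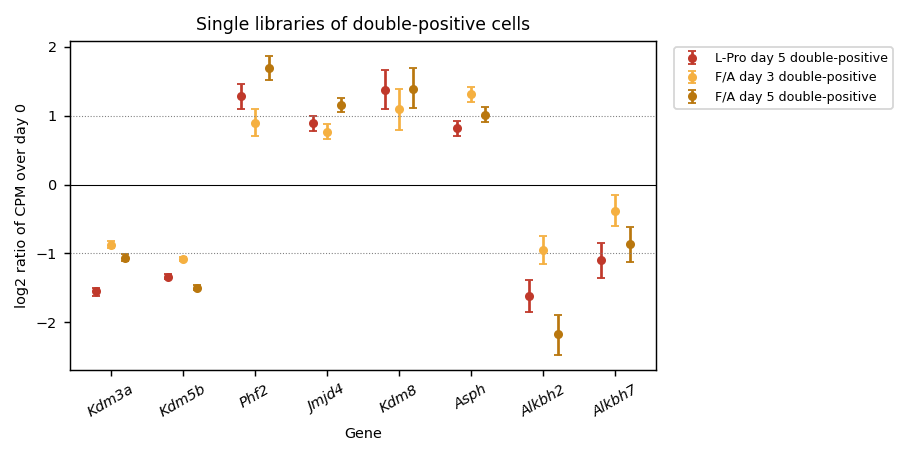
Log2 ratio of CPM over the day 0 library for the 8 members past 2-fold in at least 1 single library, with bars for the 95% counting interval and dotted lines at 2-fold. Kdm3a, Kdm5b, Alkbh2 and Alkbh7 lie below 0 and Phf2, Jmjd4, Kdm8 and Asph above 0 in all 3 libraries.

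Day 0 cells had vitamin C, so L-proline day 5 over day 0 is nearest in kind to L-Pro/LIF over VitC/LIF. Of the 11 members called in that contrast of media, 10 had the same sign in the single libraries, the exception being Kdm4b. Among all 4375 called genes with enough counts, 4160 (95.1%) had the same sign, so the members are not set apart by it.

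Genes around the members were read from lists, whose counts stand beside these shares of all genes called higher and lower. Over FBS/LIF the shares were 13.7% and 10.3% in L-Pro/LIF and 0.362% and 0.312% in VitC/LIF. In 2i/LIF they were 12.5% and 17.9%, and in F/A 24.4% and 22.0%. L-Pro/LIF over VitC/LIF had 16.8% and 13.0%, and F/A over L-Pro/LIF 11.1% and 10.9%. Differences of the lists from these shares were not tested. The shares are those of the main fit, and none is given for the fits with a library left out. Of 12 other JmjC and 2-oxoglutarate dioxygenase genes with an identifier, 11 were tested, and called higher and lower were 0 and 2 in L-Pro/LIF over FBS/LIF, 0 and 0 in VitC/LIF, 3 and 2 in 2i/LIF, 0 and 3 in F/A, 0 and 3 in L-Pro/LIF over VitC/LIF and 0 and 0 in F/A over L-Pro/LIF. Jarid2, a JmjC protein without demethylase activity that recruits Polycomb, was at 202 and 164 CPM in F/A against 549 and 643 in FBS/LIF (log2 fold change -1.71, SE 0.20, adjusted p = 0.00028). Phyh, a peroxisomal hydroxylase, rose in 2i/LIF over FBS/LIF by 1.83 (adjusted p = 1.7e-05) and Phyhd1 by 2.24 (adjusted p = 0.0033). Kdm5d, a Y-linked KDM5 gene, was at 0 and 0.0395 CPM in L-Pro/LIF against 0.828 and 1.04 in VitC/LIF. Its mean was at most 0.188 CPM in the other media, so it was tested only through VitC/LIF, and its call among the 3 lower genes is no support for a difference. Riox1 and Hif1an, at means of 13.3 and 7.16 FPKM, were not called. The F/A count was 1 without F/A replicate 1 or FBS/LIF replicate 2, and the L-Pro/LIF over FBS/LIF count was 1 without any 1 of its libraries. The count of 0 in F/A over L-Pro/LIF became 2 without F/A replicate 2.

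Genes listed as writers of the marks removed by the members are read against the backgrounds given above. Whether each listed gene, Kmt2e among them, writes the mark was not checked. In F/A over FBS/LIF 46.4% of all genes were called. Of the H3K4 list 55.6% were called, and 42.9% of the H3K36 and of the H3K9 list. The difference of these shares from the background was not tested. H3K4 methyltransferases (9 tested) had 4 higher and 1 lower in F/A over FBS/LIF (median log2 fold change 0.87), 4 and 1 over L-Pro/LIF, 1 and 1 in L-Pro/LIF and in 2i/LIF over FBS/LIF, 2 and 1 in L-Pro/LIF over VitC/LIF and 0 in VitC/LIF. Kmt2e was at 48.3 and 22.7 CPM in F/A against 10.3 and 9.98 in FBS/LIF (1.79, SE 0.31, adjusted p = 0.0023), and Kmt2d at 265 and 113 against 36.8 and 45.3 in L-Pro/LIF (2.20, SE 0.42, adjusted p = 0.011, lost at 0.051 to 0.084 without either L-Pro/LIF library). Kmt2a rose in F/A over FBS/LIF by 1.82 (adjusted p = 0.011, lost without FBS/LIF replicate 1 or F/A replicate 1 at 0.055 to 0.082), and Setd7 fell in 2i/LIF over FBS/LIF by 3.04 (adjusted p = 3.3e-05). As for Kdm6b and Fto, levels of Kmt2a, Kmt2d and Kmt2e were higher in F/A replicate 1 than in its partner. The count for L-Pro/LIF over VitC/LIF was 1 without any 1 of its libraries, that over FBS/LIF 1 without FBS/LIF replicate 1 or either L-Pro/LIF library, and that of 2i/LIF 1 without FBS/LIF replicate 2. For F/A over L-Pro/LIF the count was 1 without either L-Pro/LIF library, 2 without F/A replicate 1 and 8 without F/A replicate 2. Kmt2b and Setd1a, at means of 8.22 and 5.90 FPKM, were not called.

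H3K36 methyltransferases (7 tested) had 3 higher and 0 lower in F/A over FBS/LIF, 2 and 0 over L-Pro/LIF, 1 and 0 in both L-Pro/LIF contrasts and 0 in VitC/LIF and 2i/LIF. Nsd2 was at 287 and 173 CPM in F/A against 43.1 and 50.4 in FBS/LIF (log2 fold change 2.30, SE 0.24, adjusted p = 0.00015), Nsd3 rose by 1.74 (adjusted p = 0.0025) and Ash1l by 1.13 (adjusted p = 0.026, lost without FBS/LIF replicate 1 or F/A replicate 1 at 0.15 to 0.18), while Nsd1 and Setd2 were not called. Both L-Pro/LIF counts were 0 without either library of the partner medium, and the F/A over L-Pro/LIF count was 0 without L-Pro/LIF replicate 1, 1 without F/A replicate 1 and 4 without F/A replicate 2. H3K9 methyltransferases (7 tested) had 0 higher and 3 lower in F/A and in 2i/LIF over FBS/LIF, 0 and 2 in L-Pro/LIF over FBS/LIF, 1 and 1 over VitC/LIF, 0 and 1 in F/A over L-Pro/LIF and 0 in VitC/LIF. Ehmt2, which writes H3K9me2, was at 73.8 and 109 CPM in F/A against 224 and 204 in FBS/LIF (-1.23, SE 0.18, adjusted p = 0.00085), and Setdb1 fell by 0.65 (adjusted p = 0.0018). Suv39h1 fell in 2i/LIF by 1.03 (adjusted p = 0.00044) and Ehmt1 by 0.69 (adjusted p = 0.004), and Prdm2 was not called. The L-Pro/LIF over FBS/LIF count was 0 without any 1 of its libraries, that over VitC/LIF 1 without any 1 of its own, that of F/A over FBS/LIF 5 without F/A replicate 2, and that of F/A over L-Pro/LIF 4 without F/A replicate 2 and 0 without any 1 of the other 3.

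Flavin-dependent demethylases and their partners (8 tested) had 2 higher and 2 lower in F/A over FBS/LIF, 1 and 1 in 2i/LIF, 0 and 1 in L-Pro/LIF over either FBS/LIF or VitC/LIF and in F/A over L-Pro/LIF, and 0 in VitC/LIF. Rcor2 was at 56.3 and 82.3 CPM in F/A against 171 and 146 in FBS/LIF (log2 fold change -1.19, SE 0.18, adjusted p = 0.0012), and Rcor1 rose by 0.77 (adjusted p = 0.004). Rcor3 rose by 1.39 (adjusted p = 0.014, lost without either FBS/LIF library or F/A replicate 1 at 0.056 to 0.078), and Phf21a fell in 2i/LIF by 0.72 (adjusted p = 0.039, lost without either 2i/LIF library or FBS/LIF replicate 2 at 0.071 to 0.27), with Hdac1 and Kdm1b not called. The counts of 1 were 0 without any 1 of their libraries, except F/A over L-Pro/LIF without F/A replicate 2 (2), and the 2i/LIF count was 1 without either 2i/LIF library and 0 without FBS/LIF replicate 2. Of the 10 partners of Kdm2b in PRC1.1, 3 were higher and 2 lower in F/A over FBS/LIF, 3 and 1 over L-Pro/LIF, 2 and 1 in L-Pro/LIF over FBS/LIF, 1 and 1 over VitC/LIF and in 2i/LIF over FBS/LIF, and 0 in VitC/LIF. Bcorl1 was at 22.1 and 18.1 CPM in F/A against 0.555 and 1.27 in FBS/LIF (4.45, SE 0.50, adjusted p = 0.00021). Yaf2 was at 32.6 and 29.0 CPM in L-Pro/LIF against 9.05 and 8.27 in VitC/LIF (1.83, SE 0.13, adjusted p = 3.1e-05), Usp7 fell in F/A over FBS/LIF by 1.13 (adjusted p = 8.3e-05), and Bcor rose in F/A over L-Pro/LIF by 1.00 (adjusted p = 0.01, lost at 0.085 without L-Pro/LIF replicate 1), while Pcgf1 and Ring1 were not called. The F/A counts were 3 without FBS/LIF replicate 1 and, over L-Pro/LIF, 0 without L-Pro/LIF replicate 1, and that of 2i/LIF was 1 without either FBS/LIF library and 0 without 2i/LIF replicate 1.

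Writers and readers of m6A (14 of 15 tested), the counterparts of Fto and Alkbh5, had 2 higher and 3 lower in F/A over FBS/LIF, 2 and 0 over L-Pro/LIF, 0 and 2 in L-Pro/LIF over FBS/LIF, 1 and 2 over VitC/LIF, 0 and 1 in 2i/LIF and 0 in VitC/LIF. Wtap, a subunit of the writer complex, was at 121 and 145 CPM in F/A against 226 and 220 in FBS/LIF (log2 fold change -0.74, SE 0.12, adjusted p = 0.0014). Mettl3, its catalytic subunit, fell there by 0.57 (adjusted p = 0.022, lost without FBS/LIF replicate 1 or F/A replicate 1 at 0.085 to 0.15), Mettl16 fell in L-Pro/LIF over FBS/LIF by 0.67 (adjusted p = 0.0065, lost at 0.055 without L-Pro/LIF replicate 1 or FBS/LIF replicate 2), and Cbll1 rose in F/A over L-Pro/LIF by 1.82 (adjusted p = 0.011, lost at 0.063 to 0.064 without either L-Pro/LIF library). Ythdf2 and Ythdc1 were not called. In F/A over FBS/LIF 2 calls were left when FBS/LIF replicate 1 was dropped and 3 when F/A replicate 1 was. Dropping L-Pro/LIF replicate 1 left 0 calls over FBS/LIF and over VitC/LIF alike, dropping any other library left 1 over FBS/LIF, and dropping either VitC/LIF library left 1 over VitC/LIF. That of 2i/LIF was 0 without 2i/LIF replicate 1 or FBS/LIF replicate 2, and that of F/A over L-Pro/LIF 0 without either L-Pro/LIF library and 1 without F/A replicate 1.

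Supply of the cofactors was read from genes of vitamin C uptake and recycling (9 of 10 tested) and of 2-oxoglutarate (18 tested). The first list had 5 higher and 3 lower in 2i/LIF over FBS/LIF, 3 and 2 in F/A, 3 and 1 in L-Pro/LIF, 1 and 1 in VitC/LIF, 2 and 1 in L-Pro/LIF over VitC/LIF and 1 and 4 in F/A over L-Pro/LIF. Slc23a1, a sodium-coupled vitamin C transporter, was at 1.01 and 0.729 CPM in 2i/LIF against 22.1 and 18.7 in FBS/LIF (log2 fold change -4.54, SE 0.24, adjusted p = 5.8e-06). Glrx, a glutaredoxin, was at 16.4 and 15.8 CPM there against 0.786 and 1.03 in FBS/LIF (4.14, SE 0.23, adjusted p = 8.1e-06). The glucose transporters Slc2a1 and Slc2a3, which also carry oxidised vitamin C, rose in L-Pro/LIF over VitC/LIF by 2.04 (adjusted p = 9.7e-06) and 1.79 (adjusted p = 3.1e-05). The VitC/LIF count was 0 without any 1 of its libraries, that of 2i/LIF 5 without FBS/LIF replicate 1 or either 2i/LIF library, that of F/A 3 without FBS/LIF replicate 1, and that of F/A over L-Pro/LIF 3 without F/A replicate 1 or either L-Pro/LIF library.

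Of the 2-oxoglutarate genes, 5 were higher and 4 lower in 2i/LIF over FBS/LIF, 3 and 7 in F/A, 1 and 3 in L-Pro/LIF, 0 in VitC/LIF, 2 and 3 in L-Pro/LIF over VitC/LIF and 3 and 2 in F/A over L-Pro/LIF. The isocitrate dehydrogenase genes Idh2 and Idh1 rose in 2i/LIF by 1.61 (adjusted p = 0.00064) and 1.17 (adjusted p = 0.0027), and Psat1 fell there by 1.12 (adjusted p = 0.00031). Gpt2 was at 37.7 and 32.0 CPM in L-Pro/LIF against 89.9 and 85.5 in FBS/LIF (-1.33, SE 0.11, adjusted p = 0.00012), and Sdhb and Sdha were not called. These counts were 5 in 2i/LIF without FBS/LIF replicate 2 or either 2i/LIF library, 5 and 6 in F/A without FBS/LIF replicate 1 and F/A replicate 1, 2 in L-Pro/LIF without any 1 of its libraries, and 3 over VitC/LIF without L-Pro/LIF replicate 1. Over L-Pro/LIF the F/A count was 11 without F/A replicate 2, 3 when L-Pro/LIF replicate 2 was dropped and 1 when its partner was.

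The hypoxia response outside the members (20 tested) belongs beside Kdm3a and Kdm4b, since both are known targets of hypoxia-inducible factors. It had 11 higher and 0 lower in L-Pro/LIF over VitC/LIF (median 1.32), where 16.8% of all genes were higher and 13.0% lower. Over FBS/LIF it had 6 and 0 in L-Pro/LIF (0.46) and 0 and 4 in VitC/LIF (-0.62). In 2i/LIF it had 5 and 6 (0.15), in F/A 4 and 3 (0.28) and in F/A over L-Pro/LIF 3 and 9 (-0.58). Slc2a1 is in both this list and that of vitamin C uptake. Egln1, the oxygen-sensing prolyl hydroxylase, was at 42.5 and 41.1 CPM in L-Pro/LIF against 7.95 and 11.4 in VitC/LIF (log2 fold change 2.11, SE 0.18, adjusted p = 6e-05), and Pfkfb3 rose by 2.30 (adjusted p = 0.00027). Ndrg1 rose in F/A over FBS/LIF by 2.68 (adjusted p = 3.1e-05), Pdk1 fell there by 2.23 (adjusted p = 1.7e-05), and Hk2 and Ero1l were not called. In L-Pro/LIF over VitC/LIF, where 11 genes of this list were higher, Kdm3a was lower by 0.94 and Kdm4b higher by 0.36. The VitC/LIF count was 0 without any 1 of its libraries, that of 2i/LIF 5 or 6 without any 1 of its own, that of F/A 13 without F/A replicate 2, and that of F/A over L-Pro/LIF 4 without L-Pro/LIF replicate 1 and 7 when either L-Pro/LIF replicate 2 or F/A replicate 1 was dropped.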

How the data were processed

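For the 5 media the authors deposited natural log FPKM values, effective lengths and hit counts per gene, per the file headers, and for the single libraries whole-number counts per gene. Per the submitters' processing notes the build was mm9 and the tools included TopHat2 and HTSeq. The role of the other tools named there, the strand setting and the use of strand in counting are not given in the sources used here. Estimated counts were computed as FPKM times effective length times mapped fragments and rounded to whole numbers, so they are not the authors' own counts. They were tested with edgeR 4.0.16 (quasi-likelihood, TMM scaling, filterByExpr, a term per medium, all 10 libraries, which share 1 estimate of the spread) in R 4.3.3. P-values were adjusted by Benjamini-Hochberg over 16033 genes, with a threshold of 0.05. The script was tested on simulated data. Estimated counts summed to 98.73% to 99.48% of the mapped fragments. CPM values are TMM-scaled in the media and over library totals in the single libraries, where a 2-fold limit and a minimum of 50 counts in the higher library were used, and where 95% intervals cover counting error only, since reads carry no molecular identifiers. The effective lengths of second replicates were 39.4 to 54.1 bases longer than in FBS/LIF replicate 1. Alternatives were fragments that hit 1 gene, DESeq2 1.42.0, RLE scaling, other filters, a replicate block, only the 2 media compared, limma 3.58.1 on log2(FPKM + 1) and log2(FPKM + 0.1), and each library left out. The limma values were not TMM-scaled. Setting the limma values per length beside those on counts for every member was chosen after seeing the data. The members and all gene lists were chosen with earlier results of these data known. The text names every member that was called, and for each other list, apart from the 4 marker lists, the 4 called genes with the largest change and up to 2 uncalled genes with the highest FPKM. Jmjd7 and Tmlhe were not analysed here, and Skp1 was matched as Skp1a.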

Additional observations from a re-analysis of the deposited data

Results flagged for a closer look

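For 3 members L-proline day 5 over day 0, in the single libraries, had the opposite sign to L-Pro/LIF over VitC/LIF in the media. Kdm4b had a log2 ratio of -0.78 in the single libraries, against a log2 fold change of 0.36 in the media (adjusted p = 0.041). Kdm7a had -0.64, against 0.76 (SE 0.29, adjusted p = 0.083). Tyw5 had 0.18, against -0.22 (SE 0.20, adjusted p = 0.46). The difference between the experiments was not tested, and dose, extraction and reporter state differ between them.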

How the results depend on the processing

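No called member changed direction under any alternative run. For VitC/LIF over FBS/LIF the 0 members called became 1 on fragments that hit 1 gene, 2 with DESeq2 and 1 with no filter on low counts. With only the 2 media compared, 7 members were called in F/A over FBS/LIF and 1 in F/A over L-Pro/LIF. With limma on log2(FPKM + 1), 7 were called in L-Pro/LIF over VitC/LIF and 11 in F/A over L-Pro/LIF, and with log2(FPKM + 0.1) 7 in the first. Leaving out 1 library gave 2 to 4 calls for L-Pro/LIF over FBS/LIF, 0 for VitC/LIF, 4 to 5 for 2i/LIF, 9 to 17 for F/A over FBS/LIF, 3 to 4 for L-Pro/LIF over VitC/LIF and 2 to 11 for F/A over L-Pro/LIF. The share of all genes called in the fits with a library left out is not given. No label says that replicate numbers mark a shared culture or day, so the main fit has no replicate term. Correlations of replicate differences between media were all positive, from 0.098 to 0.518, and effective lengths also differed by replicate number. Whether replicate numbers mark a shared batch was not tested. With the replicate block the counts were 6, 0, 8, 18, 10 and 6 in the order of the comparisons above. Of the 50 called pairs, 50 were kept with a CPM filter, 49 each with DESeq2, RLE scaling and fragments that hit 1 gene, 48 with the block, 46 with no filter, 36 with each limma fit and 32 with only the 2 media, and 102 of 200 fits with a library left out kept the call. Kdm4d had too few reads to be tested at this depth.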

Other observations

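Some members differed in level between the experiments, whose tables were normalised separately. Kdm6b was at 42.1 CPM after L-proline, 69.5 and 88.5 after F/A and 66.4 at day 0 in the single libraries, and at 3.10 to 6.80 CPM in the 8 libraries of media with LIF. Fto was at 54.7 to 70.2 CPM in the single libraries and at 15.8 to 24.8 CPM in the same 8 libraries. In F/A of the media the means were higher, at 33.7 CPM (SD 23.9) for Kdm6b and 47.3 CPM (SD 20.3) for Fto. Both genes were called higher there over FBS/LIF. In the single libraries the ratios of F/A over day 0 at 3 and 5 days were 1.05 and 1.33 for Kdm6b and 0.842 and 1.08 for Fto. Kdm4d had 39 counts after 3 days of F/A, 6 after L-proline and 4 after 5 days of F/A, against 7 at day 0.

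Marker genes of other cell types were called as follows in F/A over FBS/LIF. Of 12 tested markers of the pluripotent state 3 were higher and 8 lower, of 12 fibroblast and feeder markers 8 and 1, of 12 primitive endoderm markers 8 and 1, and of 7 trophectoderm markers 3 and 2. In L-Pro/LIF over FBS/LIF the counts were 4 and 8, 9 and 0, 1 and 1, and 4 and 1 for the same lists. Over all genes tested, 24.4% were higher and 22.0% lower in F/A, and 13.7% and 10.3% in L-Pro/LIF. Differences of the marker lists from these shares were not tested, and the shares are those of the main fit. Prrx1 was at 0 in both FBS/LIF libraries and Twist2 at 0 and 0.0469 CPM, so they were tested only through other media. Calls of such genes as higher than FBS/LIF are no support for a difference. How many other listed markers share this limit was not counted. Pdgfra is in both the fibroblast and the primitive endoderm list. Of the 9 fibroblast and feeder calls in L-Pro/LIF, dropping replicate 1 or 2 of FBS/LIF left 2 or 5, and dropping replicate 1 or 2 of L-Pro/LIF left 4 or 6. Of the 9 in F/A, 4 were left without FBS/LIF replicate 1. The 5 trophectoderm calls became 3 without L-Pro/LIF replicate 2 or either FBS/LIF library in L-Pro/LIF, and 3 without F/A replicate 2 or either FBS/LIF library in F/A. The 2 primitive endoderm calls in L-Pro/LIF became 1 without FBS/LIF replicate 1 or either L-Pro/LIF library.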
